A study of Mus musculus with 6 samples.

Results

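The 6 genes described here, *Plcb4*, *Ebf2*, *Aldoc*, *Plcb3*, *Kctd12* and *Slc1a6*, are expressed by Purkinje cells in stripes. They were taken from the 53746 genes of the count table by their symbols, and each had 1 row. *Plcb4* and *Ebf2* mark zebrin-negative cells, and *Aldoc*, *Plcb3*, *Kctd12* and *Slc1a6* mark zebrin-positive cells. Whole cerebella of 6 mice at 2 months of age were sequenced as poly A-enriched RNA, 3 of genotype N153SLSL/LSL (control) and 3 of genotype N153SLSL/LSLPcp2-cre (Pcp2-cre). All 6 mice are homozygous for a conditional *Sting1* allele, in which a floxed stop cassette blocks the constitutively active N153S form of the innate immune adaptor STING. Only Pcp2-cre mice also carry the Cre transgene, which the Pcp2 promoter drives in Purkinje cells. No mouse had Cre without the conditional allele, so an effect of Cre itself and an effect of N153S cannot be told apart. By the labels, mouse 3 of each genotype was female and the other two were male.

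Purkinje cells are the output neurons of the cerebellar cortex. They look alike, yet they fall into parasagittal stripes that differ in gene expression, and the stripes are named after zebrin II, which is the glycolytic enzyme aldolase C, the product of *Aldoc*. Zebrin-positive cells also express the phospholipase PLCβ3 (*Plcb3*), the GABA-B receptor auxiliary subunit KCTD12 (*Kctd12*) and high levels of the glutamate transporter EAAT4 (*Slc1a6*), while zebrin-negative cells express PLCβ4 (*Plcb4*) and the transcription factor EBF2 (*Ebf2*). The stripes differ in their afferents and firing, and in several ataxia models zebrin-negative cells are known to be lost earlier than zebrin-positive cells. The comparison asks whether RNA of either class of stripe gene fell more than that of the other in whole tissue in which Purkinje cells express N153S.

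RNA of all 6 genes was lower in Pcp2-cre than in control cerebella, in both classes, and in each of them the Pcp2-cre mice all had less than the lowest control mouse. The fall was largest in *Ebf2*, to 47.1% of control (95% interval 39 to 57.1), and smallest in *Plcb4*, to 84.8% of control (80 to 90), and these 2 are the zebrin-negative genes. The zebrin-positive genes lay between, at 61.2% (56.1 to 66.9) for *Plcb3*, 69.2% (62.8 to 76.4) for *Kctd12*, 72.1% (66.8 to 77.8) for *Slc1a6* and 78.7% (74.4 to 83.3) for *Aldoc*. With edgeR's quasi-likelihood test and Benjamini-Hochberg adjustment over the 16961 genes that passed the filter on low counts, 6 of 6 were lower at an adjusted p of at most 0.05, against 4.75% of all tested genes. No stripe gene was higher, against 2.99% of tested genes. The study further asked for an absolute log2 fold change of 0.5 or more, which 3 of 6 reached as lower (*Ebf2*, *Plcb3* and *Kctd12*), against 1.79% of tested genes lower and 1.37% higher. Groups that did not overlap were seen with Pcp2-cre below control in 11.4% and above control in 10.8% of tested genes. On log2(FPKM + 1) values with limma the directions were kept, but *Plcb4* (adjusted p = 0.128), *Aldoc* (0.0942) and *Kctd12* (0.0529) did not pass. The median log2 fold change of the 6 genes was -0.50, that of all tested genes 0.00. In whole tissue, fewer Purkinje cells and less RNA per Purkinje cell cannot be told apart. RNA of the same genes from other cell types is not separated either.

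Total counts per mouse were 6733178 to 10178218, and a floor of 3 counts came to 0.297 to 0.447 CPM (counts scaled to library size), which covers counting error only. *Sting1*, the engineered gene, was at 25.5 ± 2.09 CPM in control and rose to 38.0 ± 5.55 CPM in Pcp2-cre mice (SD, n = 3, adjusted p = 3.59e-04 from edgeR), with groups that did not overlap. In public single-cell data cited by the paper, *Sting1* RNA was found in microglia and was low or undetectable in neurons, Purkinje cells among them. The paper holds its immunostaining to be more reliable, and this found STING protein in Purkinje cells of wild-type mice. In younger Pcp2-cre mice it saw more STING protein in Purkinje cells, but neither in microglia nor in other neurons. Which cells carry the rise of *Sting1* was not tested. The libraries held the markers of cerebellum, with 7 granule cell genes summing to 4245 to 4333 CPM in control and 4395 to 4494 CPM in Pcp2-cre mice. Of these 7 genes 1 was higher, *Neurod1* (log2 fold change 0.17, adjusted p = 0.0282 from edgeR), against 2.99% of all tested genes. Of 7 microglial genes 5 were higher in Pcp2-cre mice (summed 97.7 to 99.1 CPM in control, 218 to 236 CPM in Pcp2-cre), as were 4 of 6 oligodendrocyte genes (3548 to 3763 against 4154 to 4366 CPM), and none of these 13 genes was at 0. Their part in the falls described here was not tested. Of 18 interneuron, unipolar brush cell, vascular and fibroblast genes 0 passed the edgeR test, 1 had an unadjusted p under 0.05 and 0 passed with DESeq2. Choroid plexus genes summed to 803 and 1252 CPM in control mice 1 and 2 but to 18.2 CPM in control mouse 3 and 10.4 to 74.7 CPM in Pcp2-cre mice, and 5 of 5 tested were lower with edgeR and 1 of 5 with DESeq2. Whether the amount of choroid plexus RNA in a library bears on the stripe genes was not tested.

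The 2 phospholipases were examined first. PLCβ enzymes act downstream of receptors coupled to Gq proteins, such as the metabotropic glutamate receptor mGluR1, and split a membrane lipid into the calcium-releasing messenger IP3 and diacylglycerol. Zebrin-negative cells use PLCβ4 for this step and zebrin-positive cells PLCβ3. On GRCm39 with the Gencode M39 annotation, *Plcb4* (ENSMUSG00000039943) lies on the forward strand at chr2:135500926-135856870 with 36 exons in its canonical transcript, and none of its exonic bases is shared with another gene. *Plcb3* (ENSMUSG00000024960) lies on the reverse strand at chr19:6929693-6953838 with 31 exons in its canonical transcript. Of the exonic bases of all its transcripts, 303 are shared with the opposite-strand gene *Gm52400* and 22 with *Ppp1r14b*. Reads of these genes cannot be told apart from those of *Plcb3* there if strand was not used. *Ebf2* (ENSMUSG00000022053), the other gene of the zebrin-negative class, lies on the forward strand at chr14:67470736-67668394 with 16 exons.

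The 250 bases before the canonical start of *Plcb4* and *Plcb3* are shown because these are the phospholipases with opposite stripes. They were read from the GRCm39 genome, at chr2:135647218-135647467 (forward) for *Plcb4* and chr19:6947203-6947452 (reverse) for *Plcb3*, and are given 5′ to 3′ in the direction of the gene. Both windows lie inside the annotated span of their gene, because the canonical transcript starts within that span. Capitals mark a half-site of the ROR nuclear receptors, whose member RORα is needed by Purkinje cells.
Plcb4: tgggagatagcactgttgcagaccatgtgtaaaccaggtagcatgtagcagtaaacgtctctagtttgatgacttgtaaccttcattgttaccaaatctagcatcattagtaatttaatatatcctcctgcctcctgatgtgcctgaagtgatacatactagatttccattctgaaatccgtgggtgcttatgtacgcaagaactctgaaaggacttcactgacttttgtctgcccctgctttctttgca
Plcb3: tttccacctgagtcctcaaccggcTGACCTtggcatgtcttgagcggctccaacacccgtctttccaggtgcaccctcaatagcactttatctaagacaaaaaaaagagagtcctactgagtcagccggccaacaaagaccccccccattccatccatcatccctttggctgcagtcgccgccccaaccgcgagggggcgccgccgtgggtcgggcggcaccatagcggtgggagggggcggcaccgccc
The half-site AGGTCA, searched on both strands, had 1 match among the 6 genes, on the reverse strand of *Plcb3* 226 bases before the start, and 13.1% of 21757 promoters of this length held one. The EBF motif (TCCC, any 2 bases, then GGGA), searched on both strands, had 0 matches in the 6 genes and was found in 0.882% of the promoters. The upstream sequences differed in base composition. GC content was 41.6% in *Plcb4* and 48.8% in *Aldoc*, against 61.6% in *Plcb3*, 62.4% in *Ebf2*, 70.0% in *Slc1a6* and 77.6% in *Kctd12*. They held 3 and 1 CpG in *Plcb4* and *Aldoc*, and 16, 16, 17 and 36 CpG in *Plcb3*, *Ebf2*, *Slc1a6* and *Kctd12*, beside a median of 8 over all promoters. The window of *Ebf2* also lies inside the annotated span of its gene, and that of *Aldoc* does so in part. The matches and compositions are descriptions of these windows, and sequences before other starts of the genes were not examined.

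*Plcb4* was read at 405, 379 and 385 CPM in control mice 1, 2 and 3, and at 335, 319.7 and 337 CPM in Pcp2-cre mice 1, 2 and 3. The mean went from 390 ± 13.4 to 331 ± 9.39 CPM (SD, n = 3 each). The fall was small but larger than the spread between mice, at a log2 fold change of -0.24 (standard error 0.0408, 95% interval -0.32 to -0.15, adjusted p = 4.29e-04 from edgeR). *Plcb3* had 91.3, 82.0 and 87.8 CPM in control mice and 53.5, 57.3 and 48.8 CPM in Pcp2-cre mice. All 3 Pcp2-cre values lay far under the lowest control value, and the log2 fold change was -0.71 (standard error 0.0607, 95% interval -0.83 to -0.58, adjusted p = 4.02e-08 from edgeR). The intervals of the 2 phospholipases did not overlap.

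Within a library, the ratio of the 2 genes needs no scaling between mice. There were 4.43, 4.62 and 4.39 *Plcb4* counts per *Plcb3* count in control mice, and 6.26, 5.58 and 6.9 in Pcp2-cre mice. The mean log2 ratio went from 2.16 ± 0.039 to 2.64 ± 0.153 (SD, n = 3 each), a difference of 0.48. Every Pcp2-cre mouse had a higher share of the zebrin-negative phospholipase than every control mouse. Such separation was not particular to this pair. Of the 15 pairs of stripe genes, 8 had ratios that did not overlap between genotypes and 7 overlapped. The pairs share genes and so are not independent, and the share among pairs of other genes was not computed. The log2 ratio of *Plcb4* to *Ebf2*, of its own class, rose more, by 0.853. Its ratios to *Kctd12* and *Slc1a6* rose by 0.282 and 0.233, and that to *Aldoc* overlapped. The ratio to *Plcb3* alone thus does not describe the 2 classes. For that ratio, the 2-sided exact permutation test gave p = 0.10, the smallest that 3 against 3 mice allow, so this design cannot pass 0.05. The other 2 genes of the PLCβ family, which are not striped markers, did not pass the test. *Plcb1* had 85.4 ± 9.05 CPM in control mice and 96.3 ± 8.04 CPM in Pcp2-cre mice (log2 fold change 0.19, 95% interval 0.05 to 0.32, adjusted p = 0.101 from edgeR), and *Plcb2* was near the floor, with 5, 3 and 14 counts in control and 18, 12 and 12 counts in Pcp2-cre mice (adjusted p = 0.136).

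Most genes of the pathway around these phospholipases were lower. Of the 13 other genes listed for it, 10 were lower, 0 were higher and 3 did not pass the test (*Gna11*, *Plcb1* and *Plcb2*), and their median log2 fold change was -0.49 against 0.00 over all tested genes. Among those with the smallest p were *Itpr1*, the IP3-gated calcium release channel, at -0.98 and *Rgs8*, a regulator of G protein signaling, at -0.69. Both fell further than *Plcb4* on the log2 scale.

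*Ebf2* encodes a helix-loop-helix transcription factor that is known to hold back zebrin-positive features in zebrin-negative Purkinje cells. It was the least abundant of the 6 genes, with 122, 111 and 139 counts in control mice and 53, 58 and 52 counts in Pcp2-cre mice. On the CPM scale these were 15.2, 16.5 and 13.8 in control and 6.98, 6.69 and 7.69 in Pcp2-cre mice. The highest Pcp2-cre value was thus well under the lowest control value, and both groups were far above the floor. The log2 fold change was -1.08 (standard error 0.132, 95% interval -1.36 to -0.81, adjusted p = 6.04e-06 from edgeR), the largest fall of the 6 genes. Exons of *Ebf2* share 545 bases with *Gm20675* and 424 bases with *Gm10860* on the opposite strand, out of 7493 exonic bases. *Gm20675* had 0, 0 and 1 counts in control and 0 counts in every Pcp2-cre mouse. *Gm10860* had 28, 20 and 27 counts in control and 15, 18 and 14 in Pcp2-cre mice, and since the use of strand in counting is not given, reads of the 2 genes cannot be told apart in the shared part.

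The other EBF genes were mixed. *Ebf1* went from 68.9 ± 4.27 to 51.4 ± 3.35 CPM (log2 fold change -0.42, adjusted p = 9.55e-05 from edgeR) and *Ebf3* from 16.0 ± 2.66 to 11.3 ± 1.85 CPM (-0.50, adjusted p = 0.025). DESeq2 did not call the fall of *Ebf3*. *Ebf4* had a log2 fold change of 0.30 that did not pass the test (adjusted p = 0.249). *Zfp423* and *Zfp521*, zinc finger proteins that bind EBF factors, had log2 fold changes of -0.02 and -0.04 (adjusted p = 0.919 and 0.718), with 95% intervals of -0.18 to 0.13 and -0.14 to 0.05.

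**Figure D1:**
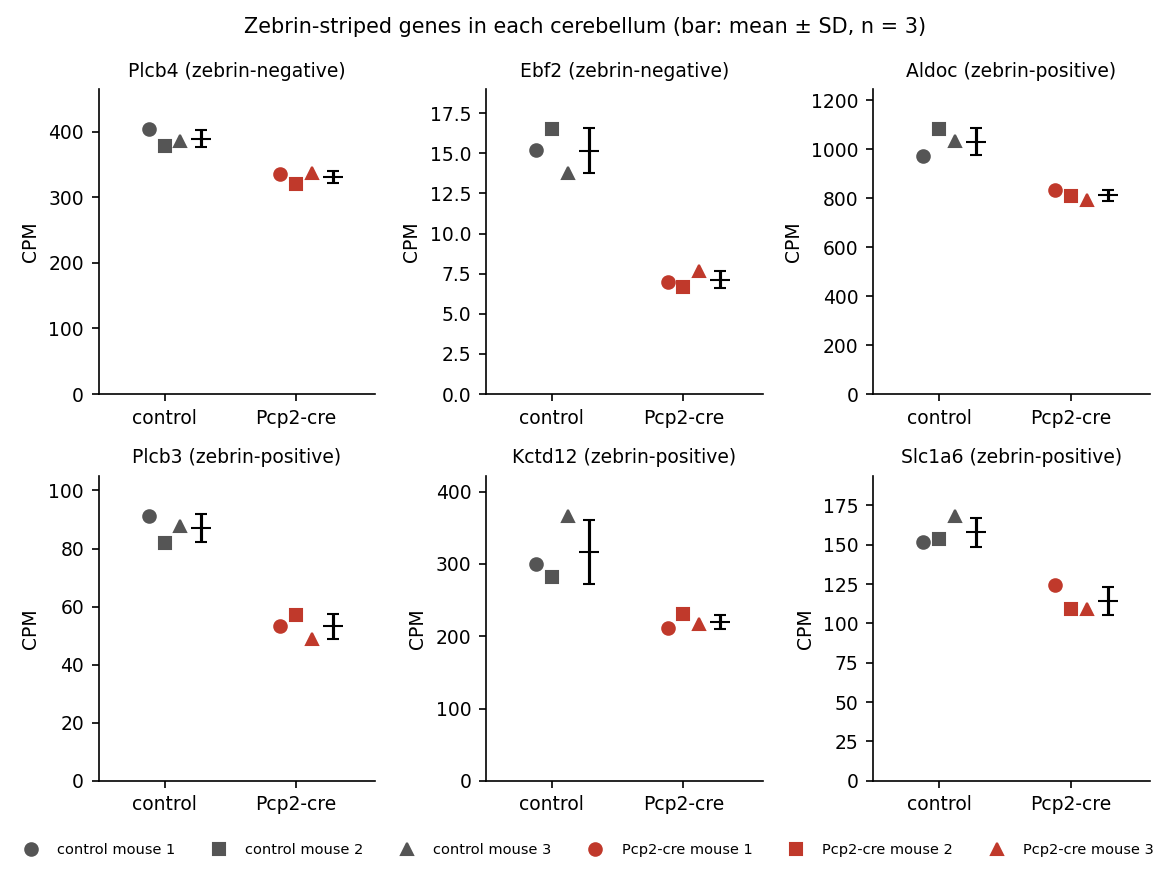
CPM of each stripe gene in each mouse, with mice 1, 2 and 3 of a genotype as circle, square and triangle and the mean ± SD beside them (n = 3). Axes start at 0 and differ between genes, and in all 6 panels the Pcp2-cre mice lie under the control mice.

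Among the zebrin-positive genes, *Aldoc* was the most abundant and fell least. It encodes aldolase C, an enzyme of glycolysis, and in the brain it is known from astrocytes as well as from Purkinje cells. *Aldoc* (ENSMUSG00000017390) lies at chr11:78213619-78218889 on the forward strand with 9 exons and shares no exonic base with another gene. It had 975, 1084 and 1036 CPM in control mice and 834, 809.6 and 792 CPM in Pcp2-cre mice. The groups were well apart, and the log2 fold change was -0.35 (standard error 0.0394, 95% interval -0.43 to -0.26, adjusted p = 2.50e-06 from edgeR). *Aldoa*, the aldolase of muscle and most other tissues, did not pass the test, with a log2 fold change of 0.03 (95% interval -0.05 to 0.11). The 2 deposited measures disagree on the level of its row, with 754 ± 26.3 CPM but 0.57 ± 0.17 FPKM in control mice. The cause of this was not tested.

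Of the 15 other glycolysis genes 0 were lower with edgeR, at an adjusted or an unadjusted p of 0.05, or with DESeq2, and 1 was higher. Over all tested genes, 4.75% were lower and 2.99% higher at an adjusted p of at most 0.05 with edgeR. A list this short cannot tell its counts from those shares. The higher gene was *Ldhb*, a lactate dehydrogenase subunit, which rose from 329 ± 13.7 to 409.6 ± 24.2 CPM (log2 fold change 0.32, adjusted p = 6.25e-05 from edgeR). The median log2 fold change of the 15 genes was -0.00. After *Ldhb* the smallest p belonged to *Pgam1* and *Pfkm*, with log2 fold changes of -0.07 and 0.06 that did not pass the test (adjusted p = 0.443 and 0.446). Astrocyte and Bergmann glia genes moved in both directions. Of 10 genes 4 were higher and 2 lower, their summed level was 3097 to 3146 CPM in control and 3500 to 3584 CPM in Pcp2-cre mice, and none was at 0. *Gfap*, an intermediate filament of reactive astrocytes, rose by 1.94 on the log2 scale, from 121 ± 8.54 to 463 ± 34.7 CPM. *Aqp4*, the astrocyte water channel, rose by 0.51, from 333 ± 22.0 to 473 ± 26.8 CPM, and *Gja1*, the gap junction protein connexin 43, by 0.37. Much of the rise in the sum thus lay in *Gfap* and *Aqp4*. *Slc1a3*, a transporter of Bergmann glia, was 1 of the 2 lower genes, at -0.22 (adjusted p = 9.95e-05 from edgeR). The part of these cells in the level of *Aldoc* was not tested.

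*Kctd12* encodes a subunit that binds the GABA-B receptor and speeds its desensitization. It is a gene of 1 exon (ENSMUSG00000098557) at chr14:103214017-103220073 on the reverse strand, and holds the 84 bases of *Mir5130*, which had 0 counts in all mice. It had 301, 282 and 367 CPM in control mice and 211, 231 and 217 CPM in Pcp2-cre mice. Control mouse 3, the female, was the highest of all, while Pcp2-cre mouse 3, also female, lay between the 2 males of its group. The log2 fold change was -0.53 (standard error 0.0678, 95% interval -0.67 to -0.39, adjusted p = 1.19e-05 from edgeR). Without control mouse 3 it was -0.41, past the test but under 0.5 in size.

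The receptor itself was lower too. *Gabbr1* and *Gabbr2*, the subunits of the GABA-B receptor, fell by 0.48 and 0.60 on the log2 scale (adjusted p = 5.82e-09 and 1.55e-09 from edgeR), from 661 ± 15.1 to 474 ± 1.68 CPM and from 304 ± 2.79 to 201 ± 5.93 CPM. The related auxiliary genes *Kctd8* and *Kctd12b* had log2 fold changes of 0.06 (95% interval -0.11 to 0.23) and 0.05 (95% interval -0.29 to 0.40) and did not pass the test. *Kctd16* had under 1.1 CPM in every mouse and was not tested.

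*Slc1a6* encodes EAAT4, the glutamate transporter of Purkinje cell dendrites and spines. *Slc1a6* (ENSMUSG00000005357) lies at chr10:78616181-78650614 on the forward strand with 10 exons in its canonical transcript. Its exons over all transcripts share 199 bases with the opposite-strand gene *Gm66870* and carry the same limit as those of *Plcb3*. It had 152, 154 and 168 CPM in control mice and 124, 109.0 and 109.0 CPM in Pcp2-cre mice. Pcp2-cre mouse 1 was nearest to the control mice and still below all of them. The log2 fold change was -0.47 (standard error 0.0526, 95% interval -0.58 to -0.36, adjusted p = 1.75e-06 from edgeR). It reached 0.5 in size without control mouse 1 (-0.50) or without Pcp2-cre mouse 1 (-0.54).

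Of the 5 other tested genes of the SLC1 family 1 was lower and 0 were higher. *Slc1a3* (GLAST), the main glutamate transporter of Bergmann glia, went from 1089 ± 24.5 to 934 ± 8.68 CPM (log2 fold change -0.22, adjusted p = 9.95e-05 from edgeR). *Slc1a2* (GLT-1), the astrocyte transporter, had 729 to 775 CPM in control mice and 786 to 796 CPM in Pcp2-cre mice, with a log2 fold change of 0.08 that did not pass the test (adjusted p = 0.225). The neuronal transporter *Slc1a1* had 0.01 (95% interval -0.15 to 0.17), the neutral amino acid transporters *Slc1a4* and *Slc1a5* had -0.08 and 0.34, and none of these passed. *Slc1a7* had 0 counts in every mouse.

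**Figure D2:**
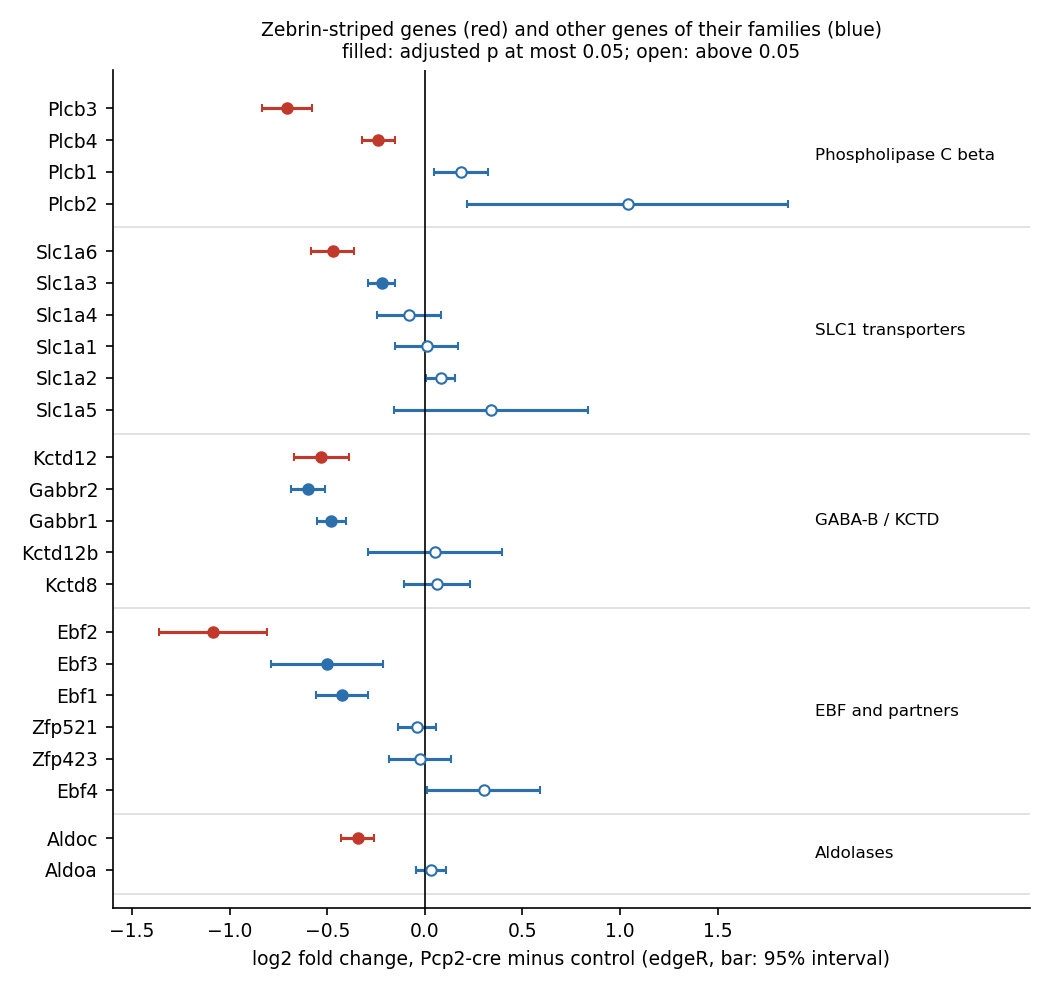
Log2 fold change, Pcp2-cre minus control, with its 95% interval from edgeR (n = 3 mice each) for the stripe genes in red and other genes of their families in blue. Filled points have an adjusted p of at most 0.05, and *Plcb3*, *Plcb4*, *Slc1a6*, *Kctd12*, *Ebf2* and *Aldoc* all lie left of 0, as do *Slc1a3*, *Gabbr1*, *Gabbr2*, *Ebf1* and *Ebf3*.

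Levels were compared between the 6 genes per exon length, as FPKM. In control mice *Aldoc* stood highest at 443 ± 20.5 FPKM, followed by *Plcb4* at 72.8 ± 4.86, *Slc1a6* at 69.8 ± 1.57, *Kctd12* at 47.4 ± 6.05, *Plcb3* at 19.5 ± 1.06 and *Ebf2* at 3.34 ± 0.49 FPKM (SD, n = 3). *Plcb4* and *Slc1a6* overlapped between mice, and all other neighbours in this order were apart. In Pcp2-cre mice the order was kept, with 336 ± 35.8 FPKM for *Aldoc*, 62.0 ± 2.44 for *Plcb4*, 49.8 ± 4.9 for *Slc1a6*, 31.9 ± 2.26 for *Kctd12*, 11.3 ± 0.905 for *Plcb3* and 1.53 ± 0.293 for *Ebf2*. There *Plcb4* stood above *Slc1a6* in all 3 mice.

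Each stripe gene was then set beside 12 genes that Purkinje cells of all stripes express. These common genes fell in every case, 12 of 12 with edgeR and 11 of 12 with DESeq2, at log2 fold changes of -0.98 to -0.40 with a median of -0.77. Among those with the smallest p were *Itpr1* and *Car8*, a protein that binds the IP3 receptor, at -0.96. The mean log2 CPM of the 12 genes stood at -0.654, -0.839 and -0.785 against the control mean in Pcp2-cre mice 1, 2 and 3, with an SD of 0.050 between control mice.

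Relative to the mean of these common genes the stripe genes differed from each other. *Plcb4* stood higher by 0.437, 0.554 and 0.576 log2 units in Pcp2-cre mice 1, 2 and 3 (control SD 0.082), *Aldoc* by 0.349, 0.490 and 0.405 (control SD 0.066) and *Slc1a6* by 0.311, 0.305 and 0.252 (control SD 0.124). In each of these 3 genes all Pcp2-cre mice lay above all control mice. *Kctd12* was higher by 0.241 ± 0.156 and *Plcb3* by 0.047 ± 0.164 (SD, n = 3), and both overlapped with the control mice. *Ebf2* was lower, at -0.330 ± 0.135, with all Pcp2-cre mice below all control mice. Each class thus held a gene that fell about as much as or more than the mean of the common genes and a gene that fell less. The common genes also differed among themselves, with log2 fold changes of -0.98 to -0.40. Those of *Slc1a6*, *Kctd12* and *Plcb3* lay within that range. *Ebf2* lay below it at -1.08, but its 95% interval of -1.36 to -0.81 reached into it. These differences are descriptions with no test, and RNA of the stripe genes from cells other than Purkinje cells was not separated.

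**Figure D3:**
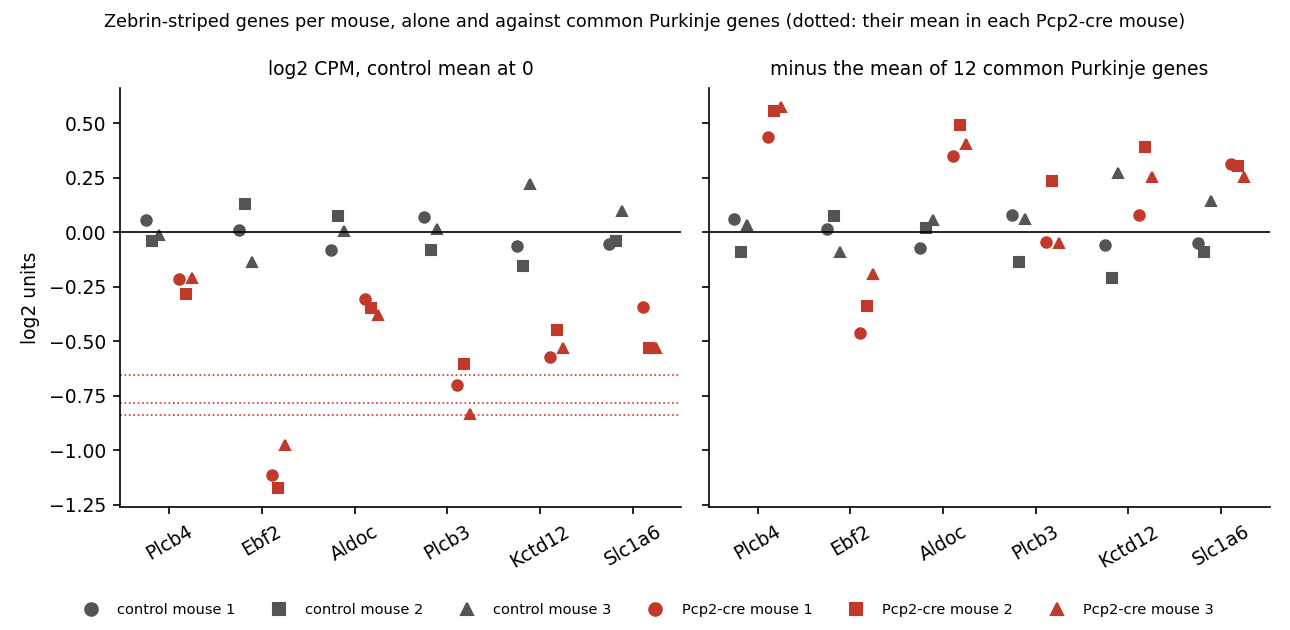
Log2 CPM of each stripe gene in each mouse with the control mean at 0 (left), and the same after the mean of the 12 common Purkinje genes in that mouse is taken away (right). On the right, *Plcb4*, *Aldoc* and *Slc1a6* of Pcp2-cre mice lie above the control mice, *Ebf2* lies below them, and *Plcb3* and *Kctd12* overlap with them.

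The classes were compared by their means over genes within each mouse. The zebrin-negative mean stood at -0.667, -0.730 and -0.592 log2 units against its control level in Pcp2-cre mice 1, 2 and 3, and the zebrin-positive mean at -0.481, -0.483 and -0.569. The difference, zebrin-negative minus zebrin-positive, was -0.186, -0.247 and -0.023 in Pcp2-cre mice and 0.065, 0.096 and -0.160 in control mice. Control mouse 3 lay within the range of the Pcp2-cre mice, so the genotypes overlapped and the mean difference of -0.15 was about the size of the spread between control mice (SD 0.140). It also depended on single genes, at -0.58 without *Plcb4* and at 0.27, in the opposite direction, without *Ebf2*. On FPKM values the sign depended on the pseudocount, at 0.0381 on log2(FPKM + 1) and -0.10 on log2(FPKM + 0.1). The difference was not tested, and it did not separate the genotypes.

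**Figure D4:**
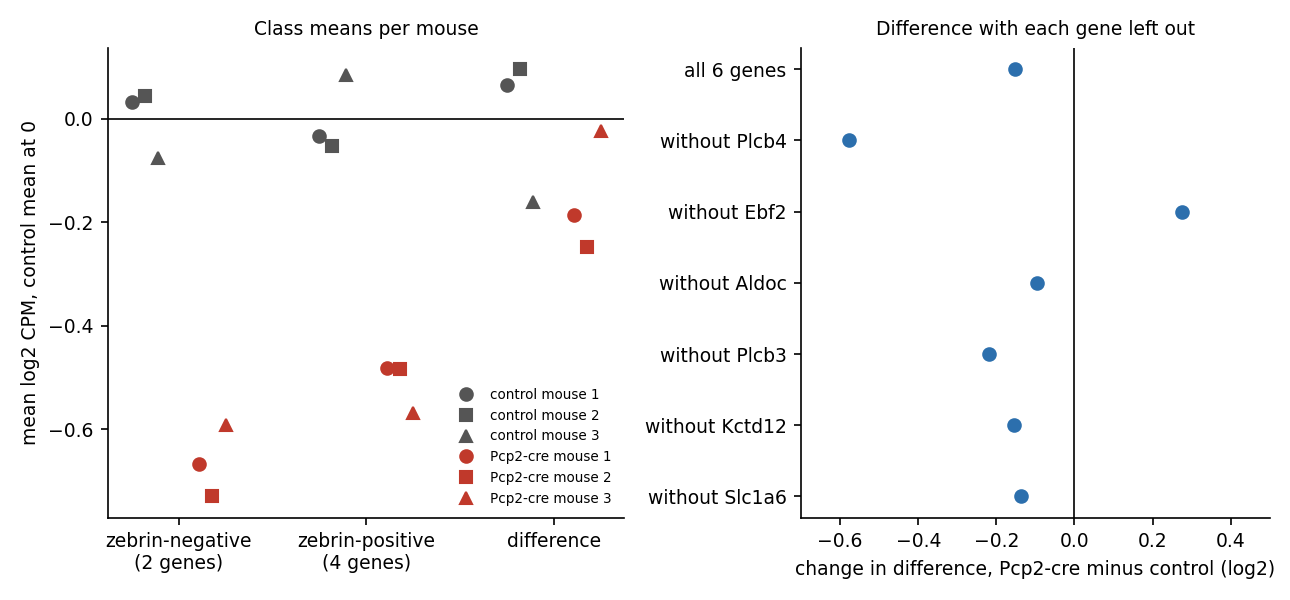
Left, mean log2 CPM of the zebrin-negative and zebrin-positive genes and their difference in each mouse, with the control mean at 0. Right, the mean difference in Pcp2-cre minus control mice with each gene left out, which is -0.15 with all 6 genes, -0.58 without *Plcb4* and 0.27 without *Ebf2*.

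Further genes with a striped pattern were lower in some cases only. Of the zebrin-negative genes, *Nefh*, the heavy neurofilament chain, fell from 114 ± 7.23 to 89.1 ± 5.60 CPM (log2 fold change -0.35, adjusted p = 1.12e-04 from edgeR). Of 4 zebrin-positive genes, *Gabbr2* was lower as given above. *Ncs1*, a neuronal calcium sensor, *Hspb1*, a small heat shock protein, and *Prkcd*, protein kinase C delta, had log2 fold changes of -0.02 (95% interval -0.10 to 0.07), 0.06 (95% interval -0.27 to 0.38) and -0.00 (95% interval -0.10 to 0.10) and did not pass the test. Of the lists as a whole, 2 of 2 further zebrin-negative and 1 of 4 further zebrin-positive genes were lower, and whether the classes differ was not tested.

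The genes most alike to each stripe gene were found by the root mean square difference of their log2 CPM profiles over the 6 mice, each centred on its mean, among 11382 genes of at least 10 CPM on average. Nearest to *Plcb4* were *Mfap3l* at 0.014, *Gnaq*, a G protein alpha subunit, at 0.017 and *Rab11fip4* at 0.018 log2 units. Nearest to *Aldoc* were *Dipk1b* at 0.019, *Sema4g*, a semaphorin, at 0.032 and *Gm12264* at 0.034. These profiles all had the small, even fall of *Plcb4* and *Aldoc*, with log2 fold changes of -0.23 to -0.34. Nearest to *Slc1a6* were *Ankrd33b* at 0.040, *Akain1* at 0.043 and *Zdhhc14*, a palmitoyltransferase, at 0.055. Nearest to *Plcb3* were *Grm7*, a metabotropic glutamate receptor, at 0.042, *Lgr5* at 0.062 and *Flt3*, a receptor tyrosine kinase, at 0.067. *Kctd12*, with its high value in control mouse 3, had no profile closer than *Slc35f1* at 0.085, *Abr* at 0.087 and *Hk2*, a hexokinase, at 0.090. Nearest to *Ebf2* were *Slc41a3*, a magnesium transporter, at 0.043, *Eps8l2* at 0.081 and *Itpr1* at 0.082. The likeness is a description over 6 mice and includes the difference between genotypes.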

How the data were processed

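RNA of whole cerebella was sequenced from 3 control and 3 Pcp2-cre mice, grouped by the genotype in the labels. Per the paper's methods, the authors trimmed the paired reads, used STAR for alignment to GRCm39, and took gene values on the Gencode annotation from featureCounts and StringTie. Versions, strand use and treatment of multi-mapping reads are not given in the sources used here. They deposited raw counts for 53746 genes and FPKM values, which scale fragments to exon length and library size, for 55005 rows.

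Counts were tested with edgeR 4.0.16 in R 4.3.3 (quasi-likelihood test after filterByExpr and TMM). The 16961 genes kept were tested together, with Benjamini-Hochberg adjustment over all of them. CPM used TMM-scaled library sizes. Alternatives were DESeq2 1.42.0, its size factors, other filters on low counts, sex as covariate, a replicate block, limma 3.58.1 on log2(FPKM + 1 or 0.1), and each mouse left out. 

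The 6 genes and all lists were chosen with earlier results of these data known. The text names the 6 genes, their families and other stripe genes, up to 4 genes per further list by smallest p, *Sting1*, and 3 nearest profiles per gene. Genes with overlapping exons are named for the stripe genes only. Some single genes and sequences that this rule covers are not reported here. Libraries of 1 genotype differed beyond counting noise (chi-square per gene 1.37 to 3.2), so each counted once. Same-numbered mice of the 2 genotypes deviated together (r = 0.187, 0.214 and 0.428 over 11455 genes), where mouse 3 is the female in both. Males of different number correlated about as much (r = 0.249 and 0.173). These are deviations from the mean of each group of 3 mice, so they are not independent of each other. Pairing by number therefore cannot be told apart from sex or another trait of mouse 3. The labels name separate mice, so p-values measure the spread between mice. The upstream sequences and gene positions came from the GRCm39 genome and Gencode M39.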

Additional observations from a re-analysis of the deposited data

How the results depend on the processing

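All 6 stripe genes kept their direction under all 14 alternatives. On FPKM values with limma and a pseudocount of 1 or 0.1, 3 and 3 of the 6 genes were lower at an adjusted p of at most 0.05, as *Plcb4* was at -0.23 and -0.23 (adjusted p = 0.128 and 0.137), *Aldoc* at -0.40 and -0.40 (0.0942 and 0.106) and *Kctd12* at -0.55 and -0.56 (0.0529 and 0.0592). The cause was not tested. *Ebf2*, *Plcb3* and *Slc1a6* passed under every alternative. With each mouse left out in turn, all 6 passed in each case, and the log2 fold changes ranged from -0.26 to -0.21 in *Plcb4*, -1.16 to -1.03 in *Ebf2*, -0.39 to -0.31 in *Aldoc*, -0.77 to -0.66 in *Plcb3*, -0.61 to -0.41 in *Kctd12* and -0.54 to -0.42 in *Slc1a6*. With a fold change of 0.5 as well, 2 to 4 of the 6 genes passed, 2 without control mouse 3, and 4 without control mouse 1 or without Pcp2-cre mouse 1. With a replicate block for the mouse number the log2 fold changes were -0.24, -1.09, -0.34, -0.71, -0.52 and -0.47 in *Plcb4*, *Ebf2*, *Aldoc*, *Plcb3*, *Kctd12* and *Slc1a6*, and 229 genes were higher and 319 lower, so the block changed no call of the stripe genes.

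The difference between the classes was -0.58 without *Plcb4*, 0.27 without *Ebf2*, 0.0381 on log2(FPKM + 1), -0.10 on log2(FPKM + 0.1), and -0.23 to -0.10 with each mouse left out. The log2 ratio of *Plcb4* to *Plcb3* differed by 0.40 to 0.55 with each mouse left out. Over all genes, 233 were called higher and 304 lower. DESeq2 called 150 higher and 231 lower, FPKM values with a pseudocount of 1 gave 126 higher and 155 lower, with 0.1 they gave 144 and 167, a fold threshold of 1 on the log2 scale gave 142 and 94, and the adjusted p alone 507 and 805. Leaving out each mouse gave 183 to 245 higher and 243 to 387 lower. With 52 to 139 counts per mouse, *Ebf2* is the least precise of the 6 genes. Groups of 3 mice were too small for a search for single outlying mice.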
